A study of Mus musculus with 6 samples.

Results

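The transcripts of 10 leukocyte adhesion and homing molecules were followed in whole B16F10 melanoma tumors. The list called here the endothelial side holds 5 adhesion molecules of the vessel wall (Icam1, Icam2, Vcam1, Sele and Selp). The list called the leukocyte side holds 5 molecules of leukocytes (Selplg, Itgal, Itgb2, Itga4 and Itgae). Other cells can make some of these transcripts, and the cells that made them were not measured. The 10 genes were taken by symbol alone, and each had a row among the 21358 genes of the deposited expression table. Levels are FPKM, counts of sequenced fragments scaled by exon length and by library depth, so levels of different genes can be set side by side. All 10 had a mean of at least 0.1 FPKM over the tumors, as had 14172 genes in all, which were tested together, but Sele reached that mean only through its level in the ACT + NKTR-214 tumors.

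The series compared 2 ways of supporting adoptive cell transfer (ACT) with 3 tumors each. C57/BL6 mice carried subcutaneous tumors of B16F10, a transplantable mouse melanoma cell line, were lymphodepleted by total body irradiation, and received activated pmel-1 T cells, which bear a transgenic receptor for the melanocyte protein gp100. The ACT + IL-2 mice were then given interleukin-2, and the ACT + NKTR-214 mice a form of interleukin-2 linked to releasable polyethylene glycol chains. Tumors were taken on day 12 after treatment, and each library is 1 tumor of 1 mouse, with melanoma, vessel, stromal and blood cells mixed. Hosts and T cell donors were young females, every tumor came from the same melanoma line, and tumors without either cytokine were not analysed here.

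Leukocytes leave the blood in steps. Selectins on the vessel wall (E-selectin, made from Sele, and P-selectin, made from Selp) catch sugars on PSGL-1, the product of Selplg, and slow the cell. Integrins on the cell, among them LFA-1 (the Itgal and Itgb2 chains) and VLA-4 (Itga4 with Itgb1), are switched on by chemokines and stop it on ICAM-1, ICAM-2 and VCAM-1. Sele, Vcam1 and Icam1 are induced in endothelium by inflammatory cytokines through NF-kappaB, Icam2 is made by resting endothelium, and Itgae pairs with Itgb7 to hold T cells against E-cadherin in epithelium.

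Promoter windows are shown for the 4 members with an entry in the promoter table used here: Sele, Selp, Icam1 and Itga4. Icam2, Vcam1, Selplg, Itgal, Itgb2 and Itgae had no entry, so the windows were not compared with the changes below. The windows are RefSeq sequences of GRCm38.p6, each running from 250 bases before the annotated start to 50 after it on the + strand: Sele at chr1:164047984-164048283, Selp at chr1:164115014-164115313, Icam1 at chr9:21015690-21015989 and Itga4 at chr2:79255176-79255475. Capitals mark matches, on either strand, to GGNNNTTCC (the spacing of a site for NF-kappaB), to TTCNNNGAA (the spacing of a site for STAT factors) and to TATAAA.
Sele: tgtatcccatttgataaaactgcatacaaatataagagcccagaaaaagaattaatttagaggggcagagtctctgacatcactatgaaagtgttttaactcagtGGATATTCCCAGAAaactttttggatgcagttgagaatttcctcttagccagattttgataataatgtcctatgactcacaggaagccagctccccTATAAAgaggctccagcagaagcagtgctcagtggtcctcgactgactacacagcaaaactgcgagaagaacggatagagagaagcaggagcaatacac
Selp: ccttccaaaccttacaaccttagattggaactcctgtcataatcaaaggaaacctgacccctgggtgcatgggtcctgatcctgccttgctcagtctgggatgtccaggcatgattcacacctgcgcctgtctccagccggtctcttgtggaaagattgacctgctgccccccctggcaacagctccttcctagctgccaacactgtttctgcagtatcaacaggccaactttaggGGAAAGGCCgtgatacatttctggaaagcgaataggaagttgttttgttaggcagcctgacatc
Icam1: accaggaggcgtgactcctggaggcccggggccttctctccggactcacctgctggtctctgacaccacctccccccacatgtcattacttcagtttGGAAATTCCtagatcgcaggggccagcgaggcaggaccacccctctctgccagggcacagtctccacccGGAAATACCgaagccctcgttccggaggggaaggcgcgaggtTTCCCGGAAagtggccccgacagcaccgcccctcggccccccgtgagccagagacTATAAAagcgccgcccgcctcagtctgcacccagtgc
Itga4: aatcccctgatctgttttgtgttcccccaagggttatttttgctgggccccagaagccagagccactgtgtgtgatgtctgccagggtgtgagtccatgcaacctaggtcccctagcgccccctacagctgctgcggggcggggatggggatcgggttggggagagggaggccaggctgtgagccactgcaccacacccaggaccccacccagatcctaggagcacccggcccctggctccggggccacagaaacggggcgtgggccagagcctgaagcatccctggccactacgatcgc
In the Sele window the GGNNNTTCC match (bases -145 to -137 from the start) overlaps the TTCNNNGAA match (-140 to -132), and TATAAA lies at -49 to -44. The Icam1 window holds a GGNNNTTCC match on both strands at -153 to -145, another on the minus strand at -84 to -76, TTCNNNGAA at -42 to -34, and TATAAA at 14 to 19. These offsets count from the RefSeq start of Icam1, which lies 45 bases before the GENCODE start, and from the GENCODE start TATAAA lies at -32 to -27, while the starts of the other 3 genes are the same in both. Selp has a single match, GGNNNTTCC on the minus strand at -14 to -6, and none of these letters were found in the Itga4 window. Among 32851 promoter windows of this length, 18.5% held GGNNNTTCC, 8.30% TTCNNNGAA and 13.6% TATAAA, so these matches describe the windows and do not by themselves mark a site in use.

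Libraries were close in depth, but the FPKM values summed to 176420 in ACT + IL-2 replicate 2 and to 217581 to 246514 in the other 5. Values in the table fall on steps of whole reads, which gave relative depths from 0.877 to 1.035 and, with GENCODE exon lengths, about 20900000 to 24600000 reads per tumor. Among the members, ACT + IL-2 replicate 1 was the highest of its group for 9 of 10 genes and ACT + NKTR-214 replicate 3 the lowest of its group for 10 of 10. The melanoma in the tissue label was plain in every tumor, where 9 melanoma markers summed to 6563 to 8407 FPKM in the ACT + IL-2 tumors and to 3557 to 4834 FPKM in the ACT + NKTR-214 tumors. With limma on log2(FPKM + 1), 20.7% of all genes tested were higher in the ACT + NKTR-214 tumors at a Benjamini-Hochberg adjusted p under 0.05 and 8.28% were lower. The higher calls made up 71.5% of all calls, but 46.8% after scaling to a common 75th percentile and 37.0% after quantile normalization, which took the all-gene median of the log2 fold change from 0.05 to -0.10.

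Adhesion transcripts of both lists were higher in the ACT + NKTR-214 tumors, and the cells that made them were not measured. All 5 endothelial side genes passed the test upwards, against a background of 20.7% of genes called higher, with a median log2 fold change of 1.29 (0.05 over all genes tested). The count and median include Sele, which met the minimum level only through the ACT + NKTR-214 tumors. With a minimum mean of 1 FPKM, where Sele drops out, the count was 4. It fell to 2 without ACT + IL-2 replicate 2 and to 3 without ACT + IL-2 replicate 3 or ACT + NKTR-214 replicate 1. On the leukocyte side 4 of 5 passed upwards with a median of 2.13, and Itga4 did not pass. No member was lower. In 4 of 5 genes on each side every ACT + NKTR-214 tumor lay above every ACT + IL-2 tumor, as in 27.1% of all genes, and in no member did every one lie below, as in 15.3% of all genes. With each gene's own variance in place of the moderated one, the 9 called members had limma adjusted p from 0.0602 to 0.157 and none passed. Fewer cells of a type and less RNA per cell cannot be told apart in whole tumors, and this holds for every difference below.

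**Figure D1:**
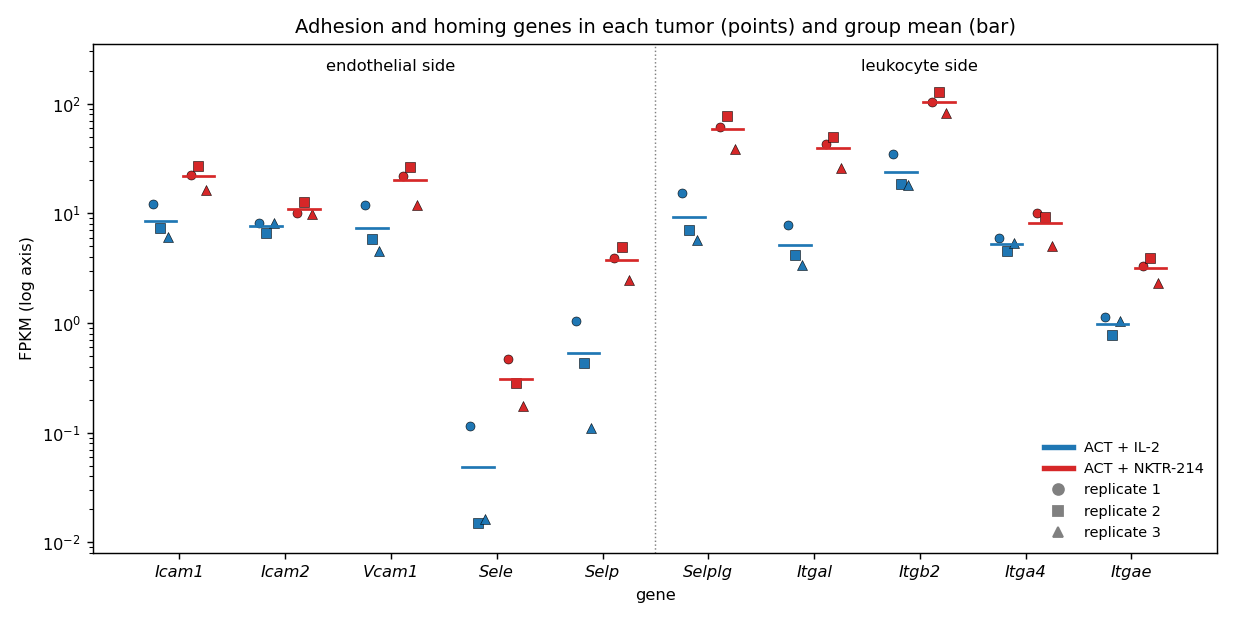
FPKM of the 10 genes in each tumor on a log axis, with the endothelial side on the left and the leukocyte side on the right; points are tumors, shapes are replicate numbers and bars are group means. The groups overlap for Vcam1, where the lowest ACT + NKTR-214 tumor reached 11.85 FPKM and the highest ACT + IL-2 tumor 11.94 FPKM, and for Itga4, and are apart for the other 8 genes.

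Selplg encodes PSGL-1, the main ligand of P-selectin on leukocytes. The ACT + IL-2 replicates, in the order 1, 2, 3, held 15.1, 6.98 and 5.76 FPKM of it, and the ACT + NKTR-214 replicates, in the same order, 61.4, 77.4 and 38.3 FPKM. Its group means were 9.29 ± 5.11 and 59.0 ± 19.7 FPKM (SD, n = 3 each), with no overlap. The log2 fold change was 2.60 ± 0.28 (SE; limma adjusted p = 5.01e-06), and between 2.35 and 2.97 with any 1 tumor left out.

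Selp, whose product is stored in endothelial granules and in platelets and moves to the surface on activation, was the vascular gene with the largest change on the log2(FPKM + 1) scale. Its level was 1.05, 0.431 and 0.111 FPKM in the ACT + IL-2 tumors in replicate order and 3.91, 4.97 and 2.46 FPKM in the ACT + NKTR-214 tumors. The means of 0.530 ± 0.476 and 3.78 ± 1.26 FPKM (SD, n = 3 each) did not overlap, and the low group itself spread widely, from 8 reads in replicate 3 to 86 reads in replicate 1. The log2 fold change of Selp was 1.65 ± 0.21 (SE; limma adjusted p = 2.8e-05). Reads summed over each group came to 128 and 950, a depth-corrected ratio of 6.90 with an exact 95% interval of 5.73 to 8.36 that covers counting error only and not the spread between tumors.

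Platelets also carry P-selectin, so their markers are given beside Selp. Of 8 platelet markers 5 could be tested and 1 of these rose, beside 20.7% of all genes called higher. This was Pf4, by 2.37 (limma adjusted p = 5.11e-05), with means of 12.6 ± 8.17 and 63.1 ± 20.9 FPKM (SD, n = 3 each). Gp9, Gp5 and Gp6 were at or near 0 in every tumor, each at 0 in at least 1 of them, and Itga2b, the platelet integrin chain, averaged 0.517 and 0.780 FPKM (adjusted p = 0.099). The summed level of the list was 6.72 to 23.6 FPKM against 48.0 to 89.1 FPKM, most of it Pf4, and its part in the Selp result was not tested.

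Sele, for E-selectin, which endothelium makes mainly when stimulated, was the rarest member. It stood at 0.115, 0.015 and 0.0164 FPKM in ACT + IL-2 replicates 1 to 3, that is 8, 1 and 1 reads, and at 0.472, 0.281 and 0.173 FPKM in the ACT + NKTR-214 replicates, that is 34, 20 and 12 reads. The groups did not overlap, but the gap between them was 0.0583 FPKM. Group means were 0.0488 ± 0.0573 and 0.309 ± 0.151 FPKM (SD, n = 3 each), and the log2 fold change of FPKM + 1 was 0.31 ± 0.096 (SE; limma adjusted p = 0.0212), a scale that understates the change of so low a gene. The summed reads, 10 against 66, gave a depth-corrected ratio of 6.13 with an exact 95% interval of 3.14 to 13.4 for counting error only. The call was lost when any of 3 tumors was dropped: ACT + IL-2 replicate 2 (adjusted p = 0.0998), ACT + IL-2 replicate 3 (adjusted p = 0.056) or ACT + NKTR-214 replicate 1 (adjusted p = 0.117). It was also lost under quantile normalization (adjusted p = 0.0667) and without the intensity trend (adjusted p = 0.0958).

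Itgal, the alpha chain of LFA-1, had the largest log2 fold change of FPKM + 1 among the members, an order that holds low genes such as Selp and Sele down. It was at 7.77, 4.18 and 3.385 FPKM after ACT + IL-2 and at 43.15, 49.4 and 26.1 FPKM after ACT + NKTR-214, so the lowest tumor of the second group stood 18.3 FPKM above the highest of the first. Means were 5.11 ± 2.33 and 39.5 ± 12.0 FPKM (SD, n = 3 each), and the log2 fold change was 2.75 ± 0.25 (SE; limma adjusted p = 8.81e-07).

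Itgb2, the beta chain that LFA-1 shares with the myeloid integrins of Itgam and Itgax, was the most abundant member in either group. Its values were 34.8, 18.3 and 18.1 FPKM after ACT + IL-2 and 103.6, 126.5 and 82.2 FPKM after ACT + NKTR-214. They did not overlap, with means of 23.7 ± 9.59 and 104 ± 22.2 FPKM (SD, n = 3 each). The log2 fold change was 2.13 ± 0.23 (SE; limma adjusted p = 4.15e-06), and its alternative partners Itgam and Itgax rose by 1.81 (adjusted p = 2.95e-05) and 1.65 (adjusted p = 8.22e-06) on the log2 scale.

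Itga4, the alpha chain of VLA-4 and of the gut-homing integrin with Itgb7, had the smallest log2 fold change on the leukocyte side. It was at 5.999, 4.49 and 5.38 FPKM in the ACT + IL-2 tumors and at 10.05, 9.31 and 5.05 FPKM in the ACT + NKTR-214 tumors, so replicate 3 of the second group lay within the range of the first. Means were 5.29 ± 0.760 and 8.14 ± 2.70 FPKM (SD, n = 3 each). The log2 fold change of 0.50 ± 0.21 (SE, 95% interval 0.06 to 0.94) had a limma adjusted p of 0.0833. Among genes with a mean of at least 1 FPKM its adjusted p was 0.0379. The call also turned on 1 tumor: without ACT + NKTR-214 replicate 3 the log2 fold change was 0.77 (adjusted p = 0.000651), and without ACT + IL-2 replicate 1 it was 0.58 (adjusted p = 0.0128). Of its exon bases 8.04% lie over exons of Cerkl on the other strand, which was at 1.33 to 2.00 FPKM.

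Itgae, the alpha chain that with Itgb7 binds E-cadherin and marks tissue-resident T cells and some dendritic cells, was at 1.14, 0.771 and 1.04 FPKM after ACT + IL-2 and at 3.34, 3.92 and 2.30 FPKM after ACT + NKTR-214. The groups did not overlap, with means of 0.985 ± 0.192 and 3.18 ± 0.817 FPKM (SD, n = 3 each). The log2 fold change was 1.06 ± 0.16 (SE; limma adjusted p = 0.000107). Cdh1, the gene for its ligand E-cadherin, rose as well, by 0.98 (limma adjusted p = 3.76e-05), with means of 0.547 ± 0.203 and 2.03 ± 0.252 FPKM (SD, n = 3 each).

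Icam1, whose product is a ligand of LFA-1 and of the Itgam integrin, was at 12.1, 7.36 and 6.05 FPKM in the ACT + IL-2 tumors and at 22.1, 27.2 and 16.2 FPKM in the ACT + NKTR-214 tumors. No tumor of the first group reached the second. The means were 8.51 ± 3.19 and 21.8 ± 5.48 FPKM (SD, n = 3 each), and the log2 fold change was 1.29 ± 0.22 (SE; limma adjusted p = 0.000334). An antisense gene, Gm47079, covers 11.7% of the exon bases of Icam1 and has no row of its own in the table, and strand use in the counting was not given in the sources used here, so reads of the pair could not be separated.

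Icam2, the ICAM that resting endothelium, platelets and some leukocytes carry, had the smallest ratio of means of any member, 1.43. Its values were 8.17, 6.54 and 8.20 FPKM after ACT + IL-2 and 10.1, 12.7 and 9.85 FPKM after ACT + NKTR-214, apart by 1.65 FPKM at the nearest tumors. Means of 7.64 ± 0.952 and 10.9 ± 1.60 FPKM (SD, n = 3 each) gave a log2 fold change of 0.46 ± 0.16 (SE; limma adjusted p = 0.0378). The call held in 2 of 6 fits with 1 tumor left out: adjusted p was 0.0779 and 0.0584 when replicate 2 or 3 of ACT + IL-2 was dropped, and 0.0636 and 0.250 when replicate 1 or 2 of ACT + NKTR-214 was. With no minimum level it was 0.0619.

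Vcam1, for the endothelial ligand of VLA-4, which macrophages and stromal cells can also make, was at 11.94, 5.77 and 4.52 FPKM after ACT + IL-2 and at 22.0, 26.4 and 11.85 FPKM after ACT + NKTR-214. Replicate 3 of the second group and replicate 1 of the first were almost level, so the groups overlapped. Means were 7.41 ± 3.97 and 20.1 ± 7.45 FPKM (SD, n = 3 each), with a log2 fold change of 1.35 ± 0.29 (SE; limma adjusted p = 0.00207). Without ACT + IL-2 replicate 2 the adjusted p was 0.0744, and the log2 fold change 1.25.

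The positions of the members on GRCm38 are those of the GENCODE annotation. Sele (chr1:164048234-164057677, + strand) and Selp (chr1:164115264-164150026, + strand) are neighbours in the selectin cluster, and 14.1% of the exon bases of Selp lie over the antisense genes Gm16548 and Gm16587, which have no rows in the table. Icam1 is at chr9:21015985-21028817 (+), Icam2 at chr11:106377656-106388075 (-) and Vcam1 at chr3:116109949-116129688 (-). Selplg is at chr5:113818536-113832644 (-), Itgal at chr7:127296260-127335138 (+), Itgb2 at chr10:77530252-77565708 (+), Itga4 at chr2:79255426-79333123 (+) and Itgae at chr11:73090583-73147446 (+). At most 2.27% of the 50-base windows of a member, the value of Icam1, occur in another gene, so near copies take few of their reads.

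The order of the levels differed between the groups. After ACT + IL-2 the means ran Itgb2, Selplg, Icam1, Icam2, Vcam1, Itga4, Itgal, Itgae, Selp and Sele from high to low, and the tumors of neighbours in this order were apart for Itgb2 and Selplg and for Itgal and Itgae and overlapped for the other 7 neighbouring pairs. After ACT + NKTR-214 the order was Itgb2, Selplg, Itgal, Icam1, Vcam1, Icam2, Itga4, Selp, Itgae and Sele, with tumors of neighbours apart for Itgb2 and Selplg, Itga4 and Selp, and Itgae and Sele. Itgal stood at rank 7 in the first order and rank 3 in the second, above the 3 vascular ligand genes.

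**Figure D2:**
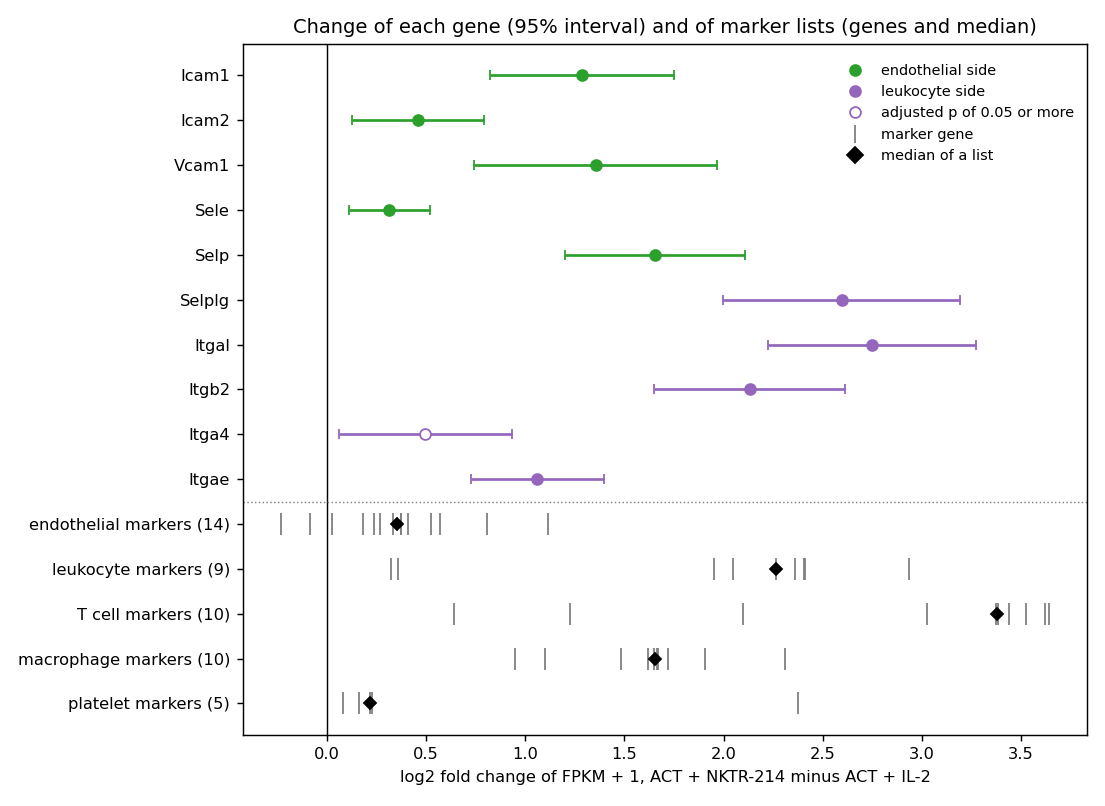
Log2 fold change of FPKM + 1, ACT + NKTR-214 minus ACT + IL-2, for the 10 genes with 95% intervals (upper rows) and for each gene of 5 marker lists as ticks with the list's median as a diamond (lower rows). Selplg, Itgal and Itgb2 lie between 2.13 and 2.75, near the leukocyte marker median of 2.27, and Itgae (1.06) and Itga4 (0.50) lie below it. The vascular genes run from 0.31 to 1.65 beside an endothelial marker median of 0.35 (0.15 under quantile normalization). The offset of 1 holds low genes down, and with a pseudocount of 0.1 Selp stood at 2.89, Sele at 1.46 and Itgal at 2.97. The open circle, Itga4, did not pass the test.

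Taken as the mean log2(FPKM + 1) of the 5 genes in each tumor, the leukocyte side stood at 3.24, 2.58 and 2.57 in the ACT + IL-2 replicates and at 4.74, 4.92 and 4.15 in the ACT + NKTR-214 replicates. The endothelial side stood at 2.36, 1.86 and 1.73 and at 3.08, 3.26 and 2.65. The difference of group means was 1.81 on the leukocyte side and 1.01 on the endothelial side. Within single tumors the leukocyte side exceeded the endothelial side by 0.88, 0.73 and 0.84 after ACT + IL-2 and by 1.67, 1.66 and 1.501 after ACT + NKTR-214. These scores rest on genes chosen with results of these data known and carry no test, and with a pseudocount of 0.1 in place of 1 the differences of group means became 2.00 on the leukocyte side and 1.54 on the endothelial side.

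Markers of the cells that make these molecules moved too. Of the 9 leukocyte markers 7 rose, with a median log2 fold change of 2.27 (9 under the 75th percentile scaling and 8 under quantile normalization). The sum of all 9 went from 308 to 486 FPKM in the ACT + IL-2 tumors to 802 to 1331 FPKM in the ACT + NKTR-214 tumors. Arhgdib, which did not pass in the main fit, made up 155 to 197 FPKM of it after ACT + IL-2 and 197 to 242 FPKM after ACT + NKTR-214. All 10 T cell markers rose (median 3.38, sums 16.1 to 34.9 and 175 to 374 FPKM), as did all 10 monocyte and macrophage markers (median 1.66, sums 426 to 1235 and 1875 to 3368 FPKM) and 6 of 7 neutrophil markers tested (median 1.15, sums 5.28 to 12.7 and 28.9 to 68.9 FPKM), with Ly6g at 0 in 5 of 6 tumors. Of 14 endothelial markers 2 rose, Pecam1 and Flt1, beside 20.7% of all genes called higher. Their median was 0.35 over the 14 markers, with sums of 124 to 193 against 144 to 209 FPKM. None of the endothelial markers was at 0 in any tumor. Fibroblast and pericyte markers rose in 6 of 10 (median 0.80, sums 229 to 685 and 602 to 1195 FPKM), and 6 of 9 melanoma markers fell (median -0.82). Under the 75th percentile scaling and under quantile normalization 3 of 10 fibroblast and pericyte markers and 9 of 10 monocyte and macrophage markers rose. Under both, 9 of 9 melanoma markers fell, and 1 of the 14 endothelial markers fell. The endothelial marker median was 0.27 and 0.15 under these scalings. The part of these cell types in the members' differences was not tested.

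Each member was therefore also set against the markers of its side within each tumor, as log2(FPKM + 0.1) minus the mean of the markers, a ratio that, for genes well above 0.1 FPKM, hardly depends on how libraries are scaled. Icam1 over the endothelial markers was 0.71, 0.90 and 0.68 in the ACT + IL-2 replicates and 1.87, 1.55 and 1.67 in the ACT + NKTR-214 replicates, a difference of 0.93, or 1.91-fold. For Vcam1 the difference was 1.029, from 0.50 ± 0.21 to 1.53 ± 0.32 (SD, n = 3 each), and for Selp it was 2.44, from -3.27 ± 0.80 to -0.83 ± 0.21. The Selp difference was 1.30 with a pseudocount of 1 and 2.83 with none. In Icam1, Vcam1 and Selp every ACT + NKTR-214 tumor lay above every ACT + IL-2 tumor. Icam2 had close group means, 0.66 ± 0.49 and 0.72 ± 0.25, with overlapping tumors (difference 0.06, exact two-sided permutation p = 0.9). Its ACT + IL-2 tumors ran from 0.14 to 1.12, and the difference from -0.20 to 0.28 with 1 tumor left out, so an unchanged ratio is not shown. Sele differed by 1.01 with no overlap, but most of its ACT + IL-2 level is the pseudocount, and the difference was -0.036 with a pseudocount of 1 and 2.76 with none. Against Pecam1 alone, which leukocytes also make, the differences were 0.20 for Icam1, 0.29 for Vcam1, 1.70 for Selp, -0.68 for Icam2 and 0.27 for Sele, with overlapping tumors for all of these but Selp. Against Cdh5 alone, an alternative chosen after seeing the data, they were 0.98 for Icam1, 1.07 for Vcam1, 2.48 for Selp and 0.10 for Icam2. Which marker best stands for the endothelial cells of these tumors was not tested.

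On the leukocyte side, Itgal over the leukocyte markers was -2.13, -2.15 and -2.36 in the ACT + IL-2 replicates and -1.14, -1.15 and -1.34 in the ACT + NKTR-214 replicates, a difference of 1.00, or 2.00-fold. Selplg differed by 0.76 and Itgb2 by 0.21, also without overlap. Itga4 went the other way, at -2.49, -2.05 and -1.71 against -3.23, -3.54 and -3.69, a difference of -1.40, so every ACT + NKTR-214 tumor lay below every ACT + IL-2 tumor. Itgae differed by -0.38 with overlap (exact two-sided permutation p = 0.2), and by -0.17 to -0.58 with 1 tumor left out, the first without ACT + IL-2 replicate 3 and the second without ACT + IL-2 replicate 1. With a pseudocount of 1 it differed by -0.83 and the groups were apart. Against Ptprc alone the differences were 0.51 for Itgal, 0.27 for Selplg, -0.28 for Itgb2, -1.90 for Itga4 and -0.88 for Itgae. Without Arhgdib and Arhgap30, the markers of the list that did not pass in the main fit, they were 0.54, 0.30, -0.25, -1.87 and -0.84. Both markers rose least of the list, so leaving them out lowers every difference by construction. The Itgae groups were apart against Ptprc alone and without Arhgdib and Arhgap30. Of the 10 marker ratios 8 gave an exact two-sided permutation p of 0.1, the smallest that 3 tumors against 3 allow, or 0.125 after Benjamini-Hochberg adjustment, so none could pass 0.05.

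**Figure D3:**
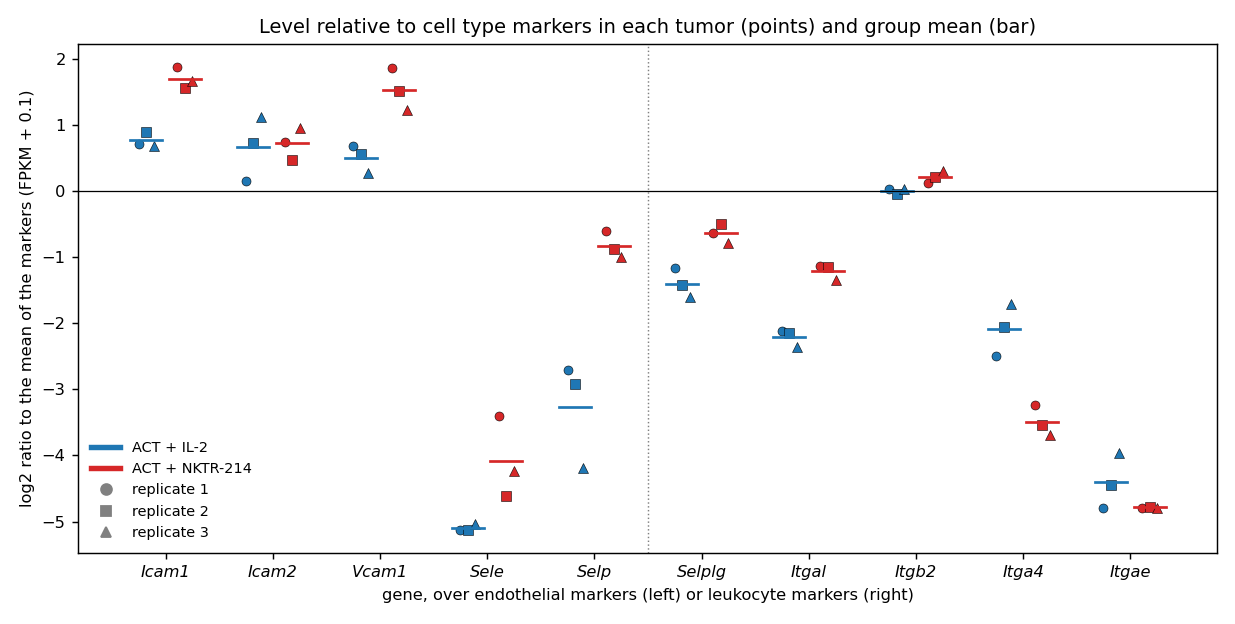
Log2 ratio, in FPKM + 0.1, of each gene to the mean of 14 endothelial markers (left) or 9 leukocyte markers (right) in each tumor; points are tumors, shapes are replicate numbers, bars are group means, and the line at 0 is the level of the markers. Icam1, Vcam1, Sele, Selp, Selplg, Itgal and Itgb2 lie higher in the ACT + NKTR-214 tumors, Itga4 lies lower (-1.40), and Icam2 and Itgae overlap, while the sign for Sele turned with a pseudocount of 1 and that for Itgb2 against Ptprc alone, and Icam1, Vcam1 and Sele overlapped against Pecam1 alone and Itgae was apart against Ptprc alone.

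Genes whose products form 1 receptor or bind each other, and the ICAM pair, were then compared as ratios within each tumor. Itgal over Itgb2, the makeup of LFA-1, was -2.15, -2.10 and -2.38 in the ACT + IL-2 replicates and -1.26, -1.36 and -1.65 in the ACT + NKTR-214 replicates, a difference of 0.79 (1.73-fold). Itga4 over Itgb1, the makeup of VLA-4, differed by 0.25 with overlap (exact two-sided permutation p = 0.4). It was 0.45 with the groups apart without ACT + NKTR-214 replicate 3 and 0.11 with overlap without ACT + NKTR-214 replicate 1. Itgb1 itself, made by most cells, was at 109 ± 17.8 and 134 ± 16.2 FPKM (SD, n = 3 each; limma adjusted p = 0.231). Over Itgb7, the leukocyte chain that both Itga4 and Itgae can pair with, Itga4 was at -0.08, 0.88 and 0.80 against -1.61, -2.16 and -2.28, and Itgae was at -2.38, -1.52 and -1.46 against -3.18, -3.39 and -3.38. Itgb7 alone averaged 3.94 ± 2.13 and 32.6 ± 8.58 FPKM (SD, n = 3 each) and rose by 2.82 on the log2 scale (limma adjusted p = 6.07e-07).

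Ligand to receptor ratios differed in both directions. Icam1 over Itgal was 0.64, 0.80 and 0.82 after ACT + IL-2 and -0.96, -0.86 and -0.68 after ACT + NKTR-214, a difference of -1.59, and for Icam2 over Itgal it was -2.46. Vcam1 over Itga4 was the reverse, with 0.98, 0.36 and -0.25 against 1.12, 1.49 and 1.21, a difference of 0.91. Within the endothelial side, Icam1 over Icam2, the induced over the resting ICAM, was 0.56, 0.17 and -0.43 against 1.13, 1.09 and 0.71, a difference of 0.88. Sele over Selplg differed by -1.27, although with no pseudocount it was 0.48 and the groups overlapped. Selp over Selplg was -3.73, -3.74 and -4.79 against -3.94, -3.94 and -3.91, with overlap (difference 0.16, exact two-sided permutation p = 1.0), and the difference was -0.94 with no overlap for a pseudocount of 1, and -0.19 without ACT + IL-2 replicate 3. Leaving Sele aside, the groups were apart in 7 of the other 9 gene pairs, with an exact two-sided permutation p of 0.1 and an adjusted p of 0.125. Among single genes 27.1% were apart upwards and 15.3% downwards, and no such share was taken over gene pairs.

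**Figure D4:**
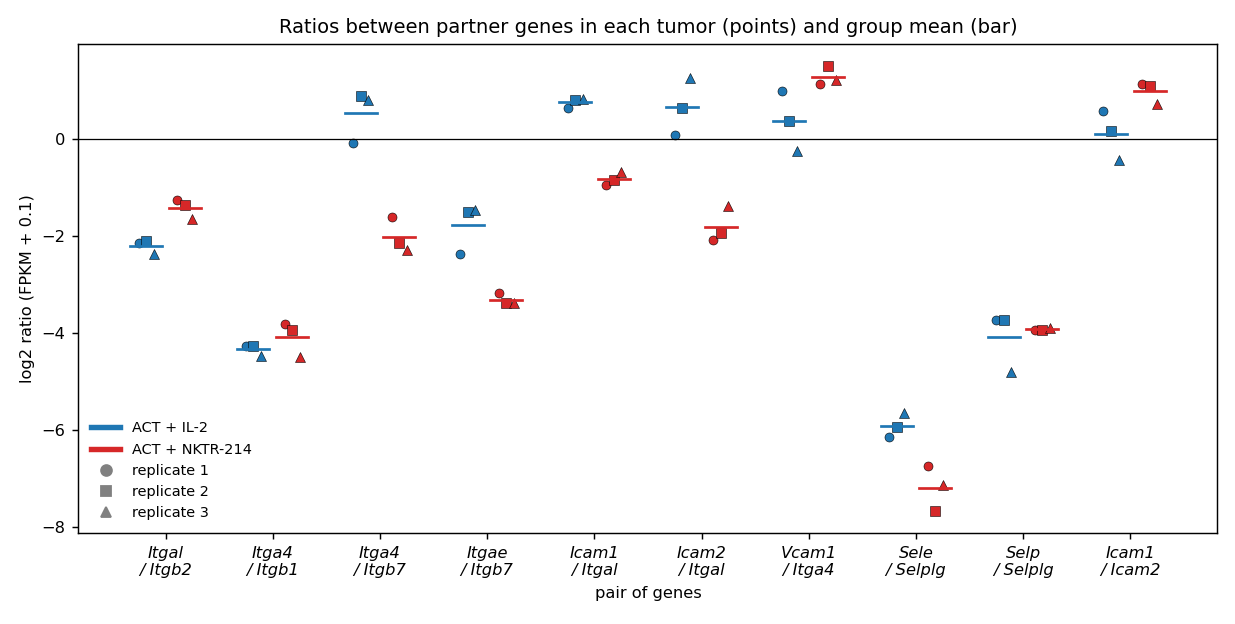
Log2 ratio, in FPKM + 0.1, between the genes of 10 pairs in each tumor; points are tumors, shapes are replicate numbers, bars are group means, and a value of 0 means equal levels. Itgal over Itgb2, Vcam1 over Itga4 and Icam1 over Icam2 lie higher in the ACT + NKTR-214 tumors, 5 pairs lie lower, among them Icam1 over Itgal (-1.59) and Sele over Selplg, which turned with no pseudocount, and Itga4 over Itgb1 and Selp over Selplg overlap.

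Other genes of the same steps were read from lists in the same fit, where 20.7% of all genes tested were called higher and 8.28% lower. Of 10 other leukocyte integrin chains tested 6 rose and none fell (median log2 fold change 0.56), while Itgad was too low to test. Itgb7, Itgam and Itgax led these chains, and Itgb3 and Itgav, at -0.12 and -0.14, did not pass. Of 12 genes that switch on integrins or tie them to actin 10 rose and 1 fell (median 1.27). Skap1, an adaptor that couples the T cell receptor to LFA-1, rose by 2.63 (limma adjusted p = 5.06e-07), with means of 0.611 ± 0.231 and 9.41 ± 3.55 FPKM (SD, n = 3 each). Fermt3, the kindlin of blood cells, rose by 2.21 (adjusted p = 8.8e-06) and Cytip, a regulator of LFA-1 adhesion, by 2.31 (adjusted p = 9.49e-07). Fermt2, the kindlin of non-blood cells, fell by 0.83 (adjusted p = 0.00112). Tln1, the talin that both kindlins work with, was at 66.6 ± 9.66 and 69.5 ± 5.25 FPKM (adjusted p = 0.796).

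PSGL-1 binds selectins only after its sugars have been built. Of 10 enzymes of that pathway tested 7 rose and none fell (median 0.69), with Chst4 at 0 in every tumor. Fut7, the fucosyltransferase that completes the selectin ligand, was at 0.183, 0.148 and 0.0928 FPKM after ACT + IL-2 and at 1.77, 2.23 and 1.10 FPKM after ACT + NKTR-214. The groups were apart, with a log2 fold change of 1.22 (limma adjusted p = 7.26e-06). B4galt1 and Tpst2, which add galactose and sulfate, rose by 1.18 (adjusted p = 0.000106) and 0.87 (adjusted p = 0.0018). St3gal6, a sialyltransferase, stood at 70.9 ± 9.65 and 52.3 ± 8.77 FPKM (adjusted p = 0.0661). Under both other scalings 1 enzyme of the list fell and 5 rose. Among 6 other proteins that can carry selectin ligands 2 rose, beside 20.7% of all genes called higher. These were Spn (CD43) by 2.66 (adjusted p = 1.12e-06) and Cd24a by 1.52 (adjusted p = 1.61e-05). Cd44, the most abundant, was at 89.5 ± 10.5 and 80.0 ± 5.97 FPKM (adjusted p = 0.511), and under both other scalings 1 gene of this list fell.

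Further ligands and signals differed as follows. Of 13 junction and transmigration molecules 5 rose and none fell, beside 20.7% of all genes called higher (median 0.35, but 0.06 with 4 higher under quantile normalization). The largest changes were in lymphocyte receptors, Cd226 by 2.59 (limma adjusted p = 1.06e-06) and Cd6 by 2.09 (adjusted p = 3.16e-05), then Cd47 by 1.44 (adjusted p = 1.65e-05), and Pvr, the ligand of Cd226, was at 20.1 ± 3.19 and 20.5 ± 1.55 FPKM (adjusted p = 0.891). Madcam1, the gut vessel ligand of the Itga4 and Itgb7 integrin, had 8 reads over the ACT + IL-2 tumors and 21 over the ACT + NKTR-214 tumors, met the minimum level only through the second group, and did not pass (limma adjusted p = 0.196). Ligands of leukocyte integrins outside the vessel all passed, 3 of 3: besides Cdh1, the VLA-4 ligands Fn1, by 0.82 (adjusted p = 0.00741), and Spp1, by 2.63 (adjusted p = 2.58e-06).

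Cytokines known to induce at least 1 of Sele, Vcam1 and Icam1, not each of them all, were higher in 6 of 7 tested (median log2 fold change 1.63). The count and median include Il13, at 0.0695, 0 and 0 FPKM after ACT + IL-2 and 0.806, 0.918 and 1.01 FPKM after ACT + NKTR-214, which met the minimum level only through the second group, and leaving it aside 5 of 6 were higher. Lta, for lymphotoxin alpha, was at 0.364, 0.221 and 0.242 FPKM after ACT + IL-2 and at 3.84, 6.38 and 4.57 FPKM after ACT + NKTR-214 (log2 fold change 2.20, limma adjusted p = 1.03e-07). Ltb rose by 2.73 (adjusted p = 5.34e-06) and Il1a by 1.81 (adjusted p = 9.41e-06), and Il1b, at 2.89 ± 1.71 and 4.77 ± 1.76 FPKM, did not pass (adjusted p = 0.126). All 9 genes that NF-kappaB both works through and induces were higher (median 0.88), led by Traf1 at 1.83 (adjusted p = 1.29e-05), Nfkbia at 1.65 (adjusted p = 8.97e-05) and Tnfaip3 at 1.62 (adjusted p = 1.37e-05). These lists were read in the same tumors as the members and in all cell types at once, and whether their transcripts arise in the same cells was not tested.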

How the data were processed

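Total RNA from the 6 whole tumors was sequenced as short single-end Illumina reads. The authors mapped the reads with HISAT2 2.0.4 to GRCm38, used HTSeq to count reads in genes, and deposited the counts as FPKM values; the annotation and the strand setting were not given in the sources used here. FPKM divides out depth and exon length but not the makeup of a library, so a rise of abundant genes lowers the share of the rest.

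The FPKM values were log2 transformed with a pseudocount of 1, genes with a mean of at least 0.1 FPKM were kept, and the 2 groups were tested in limma 3.58.1 under R 4.3.3 (moderated variance with an intensity trend, Benjamini-Hochberg adjustment over all genes tested, threshold 0.05). The p-values measure the spread between 3 tumors per group. Ratios within a tumor used a pseudocount of 0.1 and an exact two-sided permutation test, which cannot go below p = 0.1, with adjustment over 10 ratios in each family. Whole reads and relative depth were recovered from the steps of the FPKM values with 1787 genes, and all 10 members gave whole reads within 0.08 of a read. Intervals on reads are exact binomial and cover counting error only. Scripts were tested on simulated data, and Python 3.11.15 with scipy 1.17.1 was used beside R.

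Members, gene lists and tests were chosen with earlier results of these data known. All members, their partner chains, the lead markers and, from each list, up to 3 passing genes with the largest change in each direction and the most abundant gene that did not pass were named; other genes were named, after their values were seen, where a count needed them. Alternatives were other pseudocounts, minimum levels, scalings and variance models, a replicate block, single markers and leaving out each tumor.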

Additional observations from a re-analysis of the deposited data

How the results depend on the processing

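No member changed direction in any of the fits. Without moderation of the variance 0 members passed with limma's unmoderated fit on either side, although 4 of 5 on each side had an unadjusted p under 0.05 there, and over all genes 101 were called higher and 27 lower in place of 2940 and 1173. Lower calls numbered 3709 after 75th percentile scaling and 4549 after quantile normalization. With 1 tumor left out, the endothelial side count ranged from 2 (without ACT + IL-2 replicate 2) to 5 and was 3 without ACT + IL-2 replicate 3 or ACT + NKTR-214 replicate 1, the leukocyte side count from 4 to 5, the higher calls over all genes from 2005 to 3476 and the lower calls from 636 to 1996. With a pseudocount of 0.1 the difference of side means was 1.54 on the endothelial side and the leukocyte minus endothelial difference was 0.46 in place of 0.79. Among the alternatives, 6 of 100 values of the marker ratios and 3 of 80 of the gene pair ratios changed sign. Over endothelial markers these were Sele with a pseudocount of 1 (-0.036), and Icam2 over Pecam1 alone (-0.68), on leaving out ACT + IL-2 replicate 1 (-0.20) or ACT + NKTR-214 replicate 3 (-0.06), so Icam2 ranged from -0.20 to 0.28 with 1 tumor left out. Itgb2 was at -0.28 over Ptprc alone and at -0.25 over the leukocyte markers without Arhgdib and Arhgap30. Selp over Selplg was -0.94 with a pseudocount of 1 and ranged from -0.19 (without ACT + IL-2 replicate 3) to 0.34 with 1 tumor left out, and Sele over Selplg was 0.48 with no pseudocount. The ratios with no pseudocount, over Cdh5 alone and without Arhgdib and Arhgap30, and the side means with a tumor left out, were chosen after seeing the data. The cause of these changes was not tested, beyond the pseudocount, which exceeds the mean ACT + IL-2 level of Sele.

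Equal replicate numbers were not treated as pairs. Deviations from the group means correlated at -0.21, -0.07 and 0.40 for numbers 1, 2 and 3, and at -0.54 to 0.59 for unequal numbers. With 3 tumors per group these values cannot exclude a pairing. With the replicate number as a block 3090 genes were called higher and 1227 lower, 5 members passed on each side, and Itga4 had a limma adjusted p of 0.0374. Sele rests on 1 to 34 reads a tumor, which limits how well its size is known.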
